A study of Mus musculus with 15 samples.

Results

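The genes described here encode the mitogen-activated protein kinase (MAPK) cascades of the mouse kidney. A fixed list of 45 genes was used, and each gene was measured as the sum of the FPKM values of its Ensembl transcripts. FPKM counts fragments relative to transcript length and library total, so levels of different genes can be set side by side. Of the 45 genes, 44 had a transcript in the files of all 15 mice, and Dusp10 was not listed in any of them. Of the 13940 genes with a transcript in every file, 12372 had at least 1 FPKM in at least 5 mice and were tested, 42 of the list among them. The JNK and p38 phosphatase gene Dusp8 and the RSK kinase gene Rps6ka2 did not reach that level.

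RNA-seq was performed on the kidneys of 15 male wild-type C57BL/6 mice, bought at 8 weeks of age and infused after a period of adaptation, with 5 mice in each of 3 groups. Control mice received saline from an osmotic pump for 28 days. In the Ang II group the pump delivered angiotensin II at 500 ng/kg/min over the same period. The mice of the Ang II + QDG group (QDG mice) received the same infusion and Qingda granule (QDG), a Chinese herbal preparation, by gavage at 1.145 g/kg/day, while the other groups were gavaged with water. Ang II vs. Control asks which cascade genes differed after the infusion, QDG vs. Ang II which differed between infused mice with and without the granule, and QDG vs. Control which differed from mice given neither. The first pair of comparisons shares the 5 Ang II mice.

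In a MAPK cascade, a MAP3K phosphorylates a MAP2K, which phosphorylates a MAP kinase on a threonine and a tyrosine of its activation loop. Growth factor receptors feed the ERK arm through the adaptor GRB2, the SOS exchange factors, RAS and the RAF kinases, while the JNK and p38 arms respond mainly to stress and cytokines. Dual-specificity phosphatases (DUSPs) remove both phosphates and switch the kinases off. Ang II is known to activate these cascades in kidney and vessel wall through its type 1 receptor, and such activation is a change of phosphorylation, which transcript levels do not report.

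The genes that passed the test in at least 1 comparison were Hras, Spry2, Dusp7 and Dusp3. The 250 bases before the RefSeq transcription start of each are shown, because Hras, Spry2 and Dusp7 were higher in Ang II vs. Control and Dusp3 stood apart in QDG vs. Ang II. The sequences are from RefSeq on GRCm38.p6 and run 5′ to 3′ on the strand of the gene. Capitals mark the Sp1 GC box GGGCGG on either strand.
Hras: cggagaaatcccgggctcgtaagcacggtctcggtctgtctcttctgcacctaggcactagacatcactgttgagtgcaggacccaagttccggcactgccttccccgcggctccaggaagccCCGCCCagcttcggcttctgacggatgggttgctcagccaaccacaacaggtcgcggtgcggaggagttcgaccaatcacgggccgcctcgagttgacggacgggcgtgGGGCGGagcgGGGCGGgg
Spry2: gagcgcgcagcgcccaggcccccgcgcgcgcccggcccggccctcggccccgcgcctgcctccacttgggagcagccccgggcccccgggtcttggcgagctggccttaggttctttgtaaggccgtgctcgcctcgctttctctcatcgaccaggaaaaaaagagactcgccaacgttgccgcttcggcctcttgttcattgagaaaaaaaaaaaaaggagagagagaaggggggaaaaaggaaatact
Dusp7: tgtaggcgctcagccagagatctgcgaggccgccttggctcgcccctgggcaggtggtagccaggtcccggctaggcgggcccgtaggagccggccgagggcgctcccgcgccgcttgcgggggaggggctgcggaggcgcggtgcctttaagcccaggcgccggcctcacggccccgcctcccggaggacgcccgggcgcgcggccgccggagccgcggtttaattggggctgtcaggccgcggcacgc
Dusp3: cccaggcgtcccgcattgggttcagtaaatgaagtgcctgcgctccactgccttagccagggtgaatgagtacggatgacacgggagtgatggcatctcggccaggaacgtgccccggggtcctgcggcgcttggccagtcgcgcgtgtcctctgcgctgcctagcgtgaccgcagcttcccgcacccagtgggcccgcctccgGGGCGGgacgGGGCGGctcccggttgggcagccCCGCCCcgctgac
The windows are chr7:141194005-141194254 on the minus strand for Hras, chr14:105896820-105897069 on the minus strand for Spry2, chr9:106368382-106368631 on the plus strand for Dusp7 and chr11:101984792-101985041 on the minus strand for Dusp3. G and C made up 65.6%, 62.4%, 77.2% and 70% of the bases in that order, against a median of 52.4% over all promoter windows of that length. The GC box occurred 3 times for Hras and 3 times for Dusp3, and was not found for Spry2 or Dusp7. It was present in 32.7% of 32851 promoter windows and in 28 of the 41 listed genes that had a window. A listed gene was counted if any of its windows held the motif, so the share of windows and the count of genes are unlike measures.
Motifs bound by factors downstream of the cascades were searched on both strands of the same windows. The CRE TGACGTCA was present in 1.55% of all windows, the AP-1 site TGANTCA in 6.75%, the Ets site CCGGAAGT in 2.88%, the serum response element (CArG box) in 1.47% and the Egr site GCGTGGGCG in 0.536%. None of these letters occurred in the windows of Hras, Spry2, Dusp7 or Dusp3. Among the 41 listed genes with a window, again counted over any window of the gene, 2 held the CRE, 2 the AP-1 site, 2 the Ets site, 1 the CArG box and 0 the Egr site.

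The values imply 75030400 to 81319100 reads or fragments per Control library, 70692900 to 79292600 per Ang II library and 68924100 to 76145800 per QDG library. Markers of the proximal tubule summed to 3116 to 4350 FPKM over the 15 mice, and the median Spearman correlation of a library with its own group was 0.927 to 0.934, with no library apart. Mitochondrially encoded transcripts held 18.5% to 20.7% of the summed FPKM in Control, 15.4% to 16.0% in Ang II and 16.9% to 19.8% in QDG mice, so the Ang II mice were below all Control and all QDG mice, and QDG overlapped with Control. In whole tissue, fewer cells of a type and less RNA per cell cannot be told apart.

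Mean levels over the 15 mice ran from 65.2 FPKM for the ERK kinase gene Map2k2 (MEK2) to 0.705 FPKM for Dusp8. Next to Map2k2 came the p38 effector kinase gene Mapkapk2 at 39.0 FPKM, the MAP kinase gene Mapk3 (ERK1) at 35.6 FPKM and Mapk14 (p38α) at 32.8 FPKM. The other MEK gene, Map2k1, had 22.0 FPKM, and the RAF gene Araf had 21.4 FPKM against 1.06 FPKM for its relative Braf. The JNK genes Mapk8 (JNK1) and Mapk9 (JNK2) were at 5.32 and 5.39 FPKM, and the ERK5 gene Mapk7 was at 1.17 FPKM. These sums include noncoding transcripts. All 3 Mapk8 transcripts summed were coding, against 1 of 3 for Mapk9, at 1.59, 1.46 and 1.18 FPKM in Control, Ang II and QDG mice. For Araf 3 of 7 were coding, the main one at 9.45, 7.31 and 10.6 FPKM. Braf was summed over 1 of its 2 listed transcripts.
Among the phosphatase genes the order of the means was Dusp3 (14.96 FPKM), Dusp6 (13.9), Dusp7 (7.35), Dusp16 (5.23), Dusp4 (4.41), Dusp5 (0.939) and Dusp8. Dusp3 was above Dusp6 in the means of Control (15.9 and 13.8 FPKM) and Ang II (18.02 and 13.7 FPKM) and below it in QDG mice (10.98 and 14.4 FPKM). Over all mice, neighbours in the order overlapped, except Dusp4 (2.66 to 7.17 FPKM) and Dusp5 (0.601 to 1.28 FPKM).
The spread among mice of a group also differed by gene. The median coefficient of variation over genes and groups was 16.2%. It was 30% or less in every group for 27 genes, and it was over 50% in at least 1 group for 8 genes (Nf1, Braf, Rps6ka3, Map3k1, Map3k4, Map3k11, Map2k6 and Mapkapk3).

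**Figure D1:**
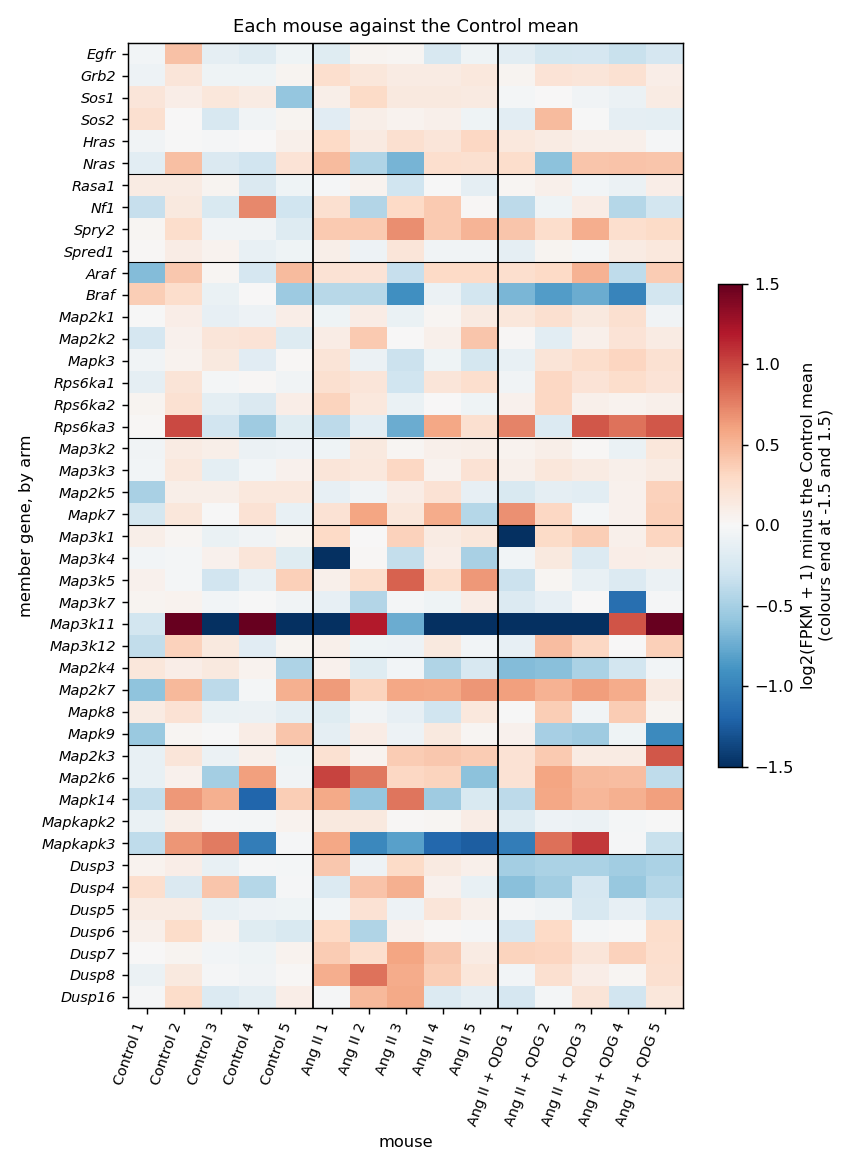
Heat map of the 44 measured genes (rows, by arm) in the 15 mice (columns), with colour for the log2(FPKM + 1) of a mouse minus the mean of the 5 Control mice. Dusp3 is blue in all 5 QDG mice, Hras, Spry2 and Dusp7 are red in all 5 Ang II mice, and Map3k11 swings from mouse to mouse within every group.

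In Ang II vs. Control, 3 of the 42 genes rose and 0 fell at an adjusted p under 0.05 (limma, Benjamini-Hochberg over all genes). They were the GTPase gene Hras, the feedback inhibitor gene Spry2 and the ERK phosphatase gene Dusp7, with mean levels 1.19, 1.51 and 1.33 times those of Control. Of all genes tested, 4.95% rose and 0.994% fell, so the count for the cascades was near the background. At an unadjusted p under 0.05, 7 of the 42 were higher and 1 was lower, where 17.9% and 4.83% of all genes were.
The median log2 fold change of the 42 genes was 0.065 against 0.083 over all genes, with 28 positive and 14 negative values. Quantile normalization gave a median of −0.027 and median scaling one of −0.026. The split of calls over all genes moved with the scaling too, from 612 higher and 123 lower as deposited to 227 and 268 with quantile normalization, 200 and 270 with median scaling, and 283 and 176 with FPKM rescaled to a total without mitochondrial transcripts.

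In QDG vs. Ang II, 1 of the 42 genes fell and 0 rose. The gene was Dusp3, which encodes a small dual-specificity phosphatase (VHR) that acts on ERK and JNK, and its mean level in the QDG mice was 0.609 times that of the Ang II mice. Of all genes tested, 1.29% fell and 0.525% rose. At an unadjusted p under 0.05, 6 were lower and 2 were higher, against 10.4% and 6.01% of all genes. The median log2 fold change was −0.046 (all genes −0.019), and it was 0.013 with a total without mitochondrial transcripts.

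In QDG vs. Control, Dusp3 fell and no other listed gene passed (limma), while 0.0323% of all genes fell and 0.097% rose. At an unadjusted p under 0.05, 5 were higher and 5 lower, where 10.7% and 3.72% of all genes were. The median log2 fold change was 0.049 (all genes 0.059), −0.019 with quantile normalization and −0.030 with median scaling.

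**Figure D2:**
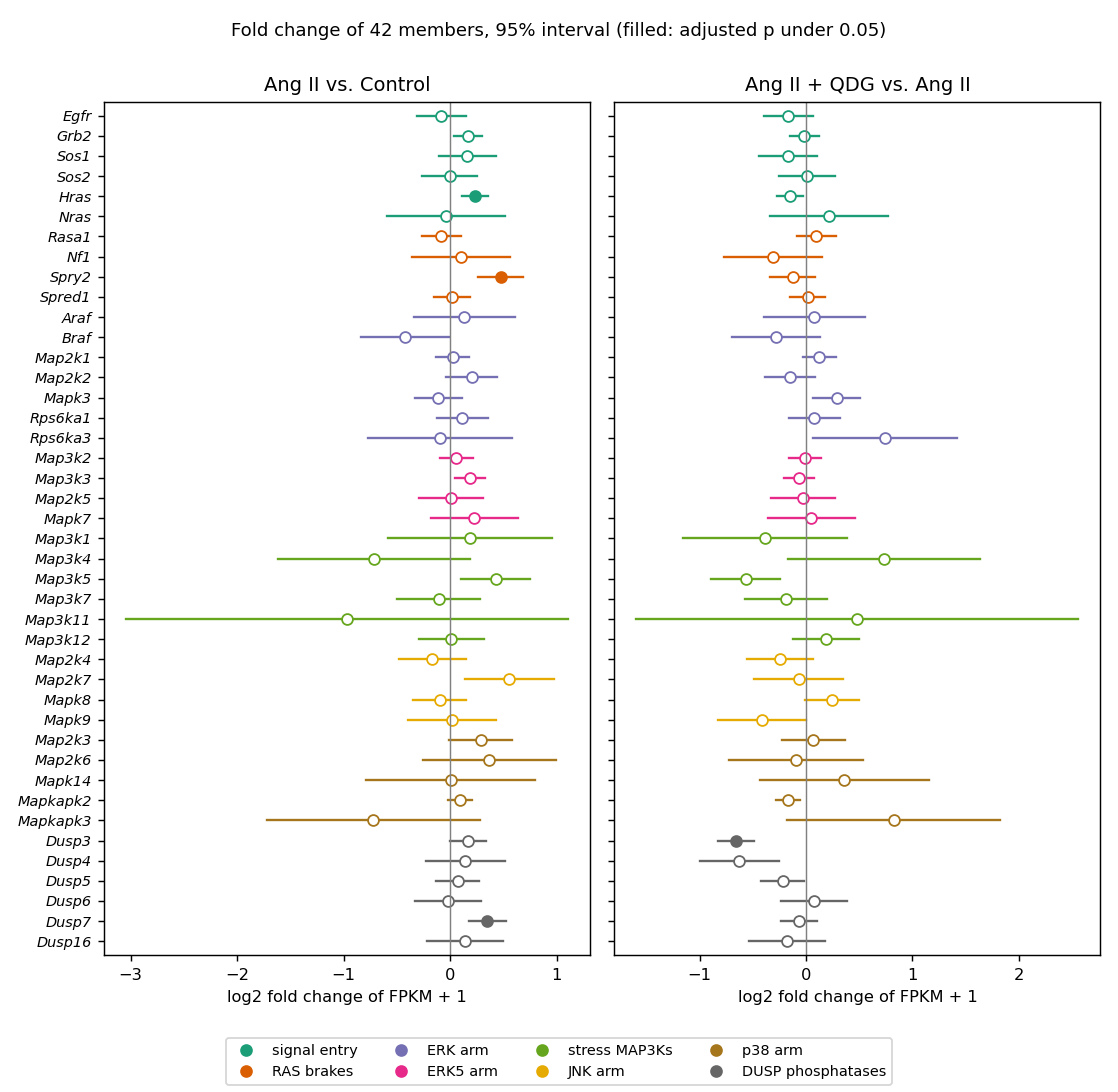
Log2 fold change of FPKM + 1 for the 42 genes tested, with the 95% interval of the limma fit, for Ang II vs. Control on the left and QDG vs. Ang II on the right, coloured by arm. Filled points passed an adjusted p under 0.05 and are Hras (0.23), Spry2 (0.48) and Dusp7 (0.35) on the left and Dusp3 (−0.66) on the right.

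At the entry of the ERK arm, Hras rose with Ang II. Hras (ENSMUSG00000025499, chromosome 7, 141189105 to 141194005 on GRCm38, minus strand) encodes a RAS GTPase that recruits RAF kinases to the membrane. Its level was 10.6, 10.9, 10.9, 11.1 and 11.6 FPKM in Control and, in the Ang II mice, 13.8, 12.2, 13.2, 12.6 and 13.9 FPKM. The QDG mice had 12.4, 12.1, 11.7, 11.7 and 10.9 FPKM. All Ang II mice lay above all Control mice, and the QDG mice lay between, overlapping with both.
Its log2 fold change was 0.23 (SE 0.055, adjusted p = 0.0273) in Ang II vs. Control, −0.15 (SE 0.055, unadjusted p = 0.0175, adjusted p = 0.190) in QDG vs. Ang II and 0.084 (adjusted p = 0.509) in QDG vs. Control. The Ang II call for Hras was lost without Control mouse 1 (adjusted p = 0.0674), Control mouse 3 (0.0613), Ang II mouse 1 (0.0564) or Ang II mouse 5 (0.0680). It was also lost with quantile normalization (adjusted p = 0.163), median scaling (0.196), a total without mitochondrial transcripts (0.101) and a fit to the compared mice alone (0.0630). Summing only protein-coding transcripts gave 0.086 with an adjusted p of 0.603, and −0.041 in QDG vs. Ang II.
The transcripts of Hras, named here after their values were seen, were not called in any comparison. The main coding transcript (ENSMUST00000026572) had 6.73 ± 0.470 FPKM in Control and 7.51 ± 0.635 FPKM with Ang II (SD, n = 5 each), with a log2 fold change of 0.14 and an adjusted p of 0.497 over all transcripts. A retained-intron transcript (ENSMUST00000128993) was at 0.560 ± 0.446, 1.197 ± 0.371 and 0.461 ± 0.103 FPKM in Control, Ang II and QDG mice, with a log2 fold change of 0.52 (adjusted p = 0.198) in Ang II vs. Control. For it, all Ang II mice were above all QDG mice (log2 fold change −0.57, unadjusted p = 0.00999, adjusted p = 0.258). A transcript annotated for nonsense-mediated decay (ENSMUST00000124971) was at 0.719 ± 0.631 FPKM in Control and, in the Ang II mice, 1.49 ± 0.908 FPKM (log2 fold change 0.54, unadjusted p = 0.121, adjusted p = 0.460).

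The other entry genes had no call. Grb2, the adaptor that binds phosphorylated receptors, had 15.9, 19.2, 16.0, 16.0 and 17.3 FPKM in Control, 18.4 to 20.3 FPKM in Ang II and 17.3 to 19.9 FPKM in QDG mice. Control mouse 2 was above the rest of its group and within the range of both infused groups. The log2 fold change of Grb2 was 0.17 (SE 0.062, unadjusted p = 0.0182, adjusted p = 0.128) in Ang II vs. Control and 0.15 (SE 0.062, unadjusted p = 0.0297, adjusted p = 0.294) in QDG vs. Control, and without Control mouse 2 the first value reached 0.21 with an adjusted p of 0.0444. Median scaling lowered both, to 0.075 and 0.072.
Egfr, the receptor that Ang II is known to transactivate, had 11.1 ± 2.35 FPKM (SD, n = 5) in Control, 10.3 ± 0.970 in Ang II and 9.07 ± 0.446 in QDG mice, with −0.25 (SE 0.11, unadjusted p = 0.0335, adjusted p = 0.304) in QDG vs. Control on the log2 scale. Without Control mouse 2, the highest of its group, that difference was −0.14 (adjusted p = 0.340). Sos1 and Sos2, which load RAS with GTP, and the RAS gene Nras had adjusted p-values of 0.488, 0.990 and 0.958 in Ang II vs. Control.

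Among the 4 genes that restrain RAS, Spry2 rose with Ang II. Spry2 (ENSMUSG00000022114, chromosome 14, 105891947 to 105896819, minus strand) encodes Sprouty 2, which growth factor signalling induces and which inhibits that signalling. Control mice had 3.15, 3.89, 2.93, 2.93 and 2.56 FPKM and Ang II mice had 4.32, 4.34, 5.60, 4.33 and 4.78 FPKM. With QDG the levels were 4.42, 3.88, 4.93, 3.85 and 3.98 FPKM. The highest Control mouse was below the lowest Ang II mouse, and QDG mice 2 and 4 were just below that Control mouse.
Spry2 differed by 0.48 (SE 0.099, adjusted p = 0.0163) on the log2 scale in Ang II vs. Control, and the call held without each of the 15 mice in turn (adjusted p = 0.00936 to 0.0421). Median scaling gave 0.38 with an adjusted p of 0.0506. The value was −0.12 (95% interval −0.33 to 0.089, adjusted p = 0.585) in QDG vs. Ang II and 0.35 (SE 0.099, unadjusted p = 0.00312, adjusted p = 0.136) in QDG vs. Control.
The other RAS brakes had no call in any comparison. Rasa1 and Nf1, which make RAS hydrolyse GTP, had log2 fold changes of −0.084 and 0.10 in Ang II vs. Control and of 0.098 and −0.31 in QDG vs. Ang II. Spred1, which binds neurofibromin, had 6.70 ± 0.472, 6.79 ± 0.609 and 6.88 ± 0.625 FPKM in Control, Ang II and QDG mice (SD, n = 5 each).

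Of the 7 genes tested in the ERK arm, 0 were called in any comparison by limma, with 1 lower in Ang II vs. Control, 2 higher in QDG vs. Ang II and 1 lower in QDG vs. Control at an unadjusted p under 0.05. The shares of all genes in those directions were 4.83%, 6.01% and 3.72%. Mapk3, the gene of ERK1, had 33.6, 36.1, 38.6, 30.8 and 35.1 FPKM in Control and, in the Ang II mice, 39.8, 32.6, 27.5, 33.2 and 28.8 FPKM. QDG mice had 32.1, 39.8, 41.97, 43.5 and 40.9 FPKM. Of the QDG mice, 4 were above every Ang II mouse, and mouse 1 was within the Ang II range. For Mapk3 the log2 fold change was −0.11 (adjusted p = 0.574) in Ang II vs. Control, 0.29 (SE 0.10, unadjusted p = 0.0140, adjusted p = 0.171) in QDG vs. Ang II and 0.18 (adjusted p = 0.444) in QDG vs. Control. Over the main fit and the 11 other settings, the values against Control ran from −0.20 to −0.11 and from 0.10 to 0.18.
Braf encodes the RAF kinase with the highest basal activity. It had 2.32, 2.09, 1.40, 1.59 and 0.760 FPKM in Control and, in the Ang II mice, 0.931, 0.928, 0.360, 1.42 and 1.12 FPKM. QDG mice had 0.605, 0.443, 0.534, 0.290 and 1.13 FPKM. Control mouse 5 was within the range of both infused groups, and all groups overlapped. Braf differed by −0.42 (SE 0.19, unadjusted p = 0.0468, adjusted p = 0.212) in Ang II vs. Control, −0.28 (adjusted p = 0.512) in QDG vs. Ang II and −0.71 (SE 0.19, unadjusted p = 0.00274, adjusted p = 0.132) in QDG vs. Control on the log2 scale. The size of the first and last value depended on the processing, at −0.80 and −1.47 with a pseudocount of 0.01 and at −0.16 and −0.28 (adjusted p = 0.695 and 0.551) with all listed transcripts and missing ones as 0. That setting adds a Braf transcript listed only for Control mice or only for infused mice.
Rps6ka3 encodes RSK2, a kinase that ERK activates, and had 3.03, 3.76, 2.16, 6.93 and 5.28 FPKM in Ang II and 7.92, 3.62, 9.15, 8.30 and 9.11 FPKM in QDG mice. Control ranged from 2.67 to 9.52 FPKM, and all groups overlapped. The log2 difference in QDG vs. Ang II was 0.74 (SE 0.31, unadjusted p = 0.0338, adjusted p = 0.253). Map2k1 had 21.1 ± 1.51, 21.5 ± 1.65 and 23.5 ± 1.91 FPKM in Control, Ang II and QDG mice (SD, n = 5 each), and Map2k2 had 61.5 ± 9.06, 70.7 ± 9.53 and 63.4 ± 5.90 FPKM.

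The ERK5 arm (Map3k2, Map3k3, Map2k5 and Mapk7) had 0 calls among its 4 genes by limma and 1 gene at an unadjusted p under 0.05, Map3k3 in Ang II vs. Control, where 17.9% of all genes were higher at that p. Map3k3, a MAP3K upstream of ERK5, had 10.3, 11.9, 9.51, 10.2 and 11.1 FPKM in Control and, in the Ang II mice, 12.1, 11.98, 13.3, 11.03 and 12.5 FPKM. The groups overlapped, with a log2 difference of 0.18 (SE 0.065, unadjusted p = 0.0136, adjusted p = 0.110), which was 0.094 under median scaling. Mapk7, the gene of ERK5, had 0.906 ± 0.260, 1.28 ± 0.587 and 1.32 ± 0.460 FPKM in Control, Ang II and QDG mice (SD, n = 5 each). Its log2 fold change was 0.22 (adjusted p = 0.528) in Ang II vs. Control, 0.051 (adjusted p = 0.933) in QDG vs. Ang II and 0.28 (adjusted p = 0.538) in QDG vs. Control. With all listed transcripts, and those missing from a file counted as 0, the values against Control were negative (−0.21 and −0.16). That setting adds a Mapk7 transcript listed only for Control mice or only for infused mice.

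Among the 6 stress-activated MAP3K genes 0 were called in any comparison by limma, and Map3k5 was the only one with an unadjusted p under 0.05, higher in Ang II vs. Control (17.9% of all genes) and lower in QDG vs. Ang II (10.4%). Map3k5 encodes ASK1, a kinase upstream of JNK and p38 that oxidative stress activates. Control mice had 13.3, 12.4, 10.3, 11.7 and 16.6 FPKM and Ang II mice 13.4, 15.4, 24.3, 15.4 and 20.4 FPKM. The QDG mice had 9.96, 13.0, 11.7, 10.9 and 11.9 FPKM. All Ang II mice, led by mouse 3, were above all QDG mice, while Control overlapped with both groups.
On the log2 scale Map3k5 differed by 0.43 (SE 0.15, unadjusted p = 0.0131, adjusted p = 0.108) in Ang II vs. Control and by −0.57 (SE 0.15, unadjusted p = 0.00208, adjusted p = 0.0709) in QDG vs. Ang II, neither of which passed. Without Ang II mouse 1 the latter was −0.65 with an adjusted p of 0.0498. It was −0.14 (adjusted p = 0.712) in QDG vs. Control.
Several other MAP3K genes varied widely among mice of a group. Map3k11 (MLK3) was at 0.0175 and 0 FPKM in Control mice 3 and 5 and at 11.9 and 11.5 FPKM in Control mice 2 and 4. It ranged from 0 to 6.78 FPKM in Ang II and from 0.00763 to 11.8 FPKM in QDG mice. Map3k4 was at 0.0594 FPKM in Ang II mouse 1 and at 4.45 to 7.16 FPKM in the others of its group, and Map3k1 was at 0.253 FPKM in QDG mouse 1 and at 4.51 to 5.72 FPKM in the others. The 95% intervals of Map3k11, Map3k4 and Map3k1 in Ang II vs. Control ran from −3.04 to 1.11, from −1.61 to 0.19 and from −0.59 to 0.96 on the log2 scale. Map3k12 (DLK) had 1.25 ± 0.426, 1.23 ± 0.152 and 1.57 ± 0.432 FPKM in Control, Ang II and QDG mice (SD, n = 5 each).

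The JNK arm had 0 calls among its 4 genes by limma, with Map2k7 higher in Ang II vs. Control (17.9% of all genes), and Map2k7 higher (10.7%) and Map2k4 lower (3.72%) in QDG vs. Control, at an unadjusted p under 0.05. Map2k7 (MKK7), which phosphorylates JNK, had 3.40, 8.36, 4.06, 5.52 and 8.63 FPKM in Control and, in the Ang II mice, 9.38, 7.39, 8.95, 8.85 and 9.57 FPKM. QDG mice had 9.19, 8.52, 9.28, 8.76 and 6.28 FPKM. Control mice 1, 3 and 4 were below all infused mice, and Control mice 2 and 5 were within their range. The log2 fold change of Map2k7 was 0.56 (SE 0.20, unadjusted p = 0.0132, adjusted p = 0.109) in Ang II vs. Control, −0.070 (adjusted p = 0.904) in QDG vs. Ang II and 0.49 (SE 0.20, unadjusted p = 0.0265, adjusted p = 0.282) in QDG vs. Control.
Map2k4 (MKK4), which phosphorylates both JNK and p38, had 14.7, 13.8, 14.4, 13.4 and 9.07 FPKM in Control and 7.85, 7.98, 9.02, 10.5 and 12.5 FPKM in QDG mice. These groups overlapped, with a log2 difference of −0.41 (SE 0.15, unadjusted p = 0.0136, adjusted p = 0.222). Mapk8 had 5.23 ± 0.700, 4.82 ± 0.700 and 5.91 ± 1.03 FPKM in Control, Ang II and QDG mice (SD, n = 5 each). It differed by −0.099 (adjusted p = 0.667) in Ang II vs. Control, 0.24 (adjusted p = 0.319) in QDG vs. Ang II and 0.14 (adjusted p = 0.606) in QDG vs. Control on the log2 scale. Mapk9 had 5.96 ± 1.60, 5.89 ± 0.579 and 4.32 ± 1.45 FPKM and differed by 0.016 (adjusted p = 0.976), −0.41 (adjusted p = 0.305) and −0.40 (adjusted p = 0.368) in that order. The other scalings gave −0.077, −0.075 and −0.041 for the first of these, and protein-coding transcripts alone gave −0.21 and −0.27 for the others. For Mapk8, the main fit and the 11 other settings gave −0.20 to −0.099 in Ang II vs. Control and 0.057 to 0.17 in QDG vs. Control.

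The p38 arm had 0 calls among its 5 genes by limma, with Mapkapk2 lower in QDG vs. Ang II (10.4% of all genes) and Map2k3 higher in QDG vs. Control (10.7%) at an unadjusted p under 0.05. Mapk14 ranged from 11.6 to 44.1 FPKM in Control, from 18.2 to 49.2 FPKM in Ang II and from 21.01 to 43.2 FPKM in QDG mice, and the groups overlapped. Its log2 fold change was 0.0068 (95% interval −0.79 to 0.80, adjusted p = 0.995) in Ang II vs. Control, 0.36 (adjusted p = 0.681) in QDG vs. Ang II and 0.37 (adjusted p = 0.691) in QDG vs. Control. The first of these was −0.088, −0.084 and −0.057 under the other scalings. With a mouse left out, the other values ran from 0.21 to 0.56 and from 0.070 to 0.56.
Mapkapk2 encodes MK2, the kinase through which p38 stabilises cytokine mRNAs. It had 36.3, 41.4, 38.5, 37.9 and 40.5 FPKM in Control and, in the Ang II mice, 43.1, 43.3, 39.3, 39.6 and 42.1 FPKM. QDG mice had 33.8, 36.8, 36.4, 38.2 and 38.7 FPKM. All QDG mice were below all Ang II mice, and both groups overlapped with Control. The log2 difference of −0.17 (SE 0.053, unadjusted p = 0.00621, adjusted p = 0.116) in QDG vs. Ang II did not pass, and it was −0.097 under quantile normalization.
Map2k3 (MKK3), which phosphorylates p38, had 11.1, 14.0, 11.4, 12.8 and 11.6 FPKM in Control and 14.3, 16.3, 13.3, 13.3 and 24.0 FPKM in QDG mice. QDG mouse 5 was above all others, and the remaining QDG mice overlapped with Control. The log2 fold change of Map2k3 in QDG vs. Control was 0.36 (SE 0.14, unadjusted p = 0.0218, adjusted p = 0.262). It was 0.21 without QDG mouse 5 (adjusted p = 0.367) and 0.20 with protein-coding transcripts only (adjusted p = 0.821).

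Of the 8 phosphatase genes, 6 were tested. Dusp7 rose in Ang II vs. Control, and Dusp3 fell in QDG vs. Ang II and in QDG vs. Control. The log2 fold changes of the 6 genes had a median of 0.14 in Ang II vs. Control (all genes 0.083) and of −0.20 in QDG vs. Ang II (all genes −0.019), where 5 of 6 were negative and 3 had an unadjusted p under 0.05 (Dusp3, Dusp4 and Dusp5). Of the 12372 genes tested, 6641 were negative in that comparison, and 10.4% were lower at that p. Dusp5 reached the minimum level only through Control and Ang II mice, as its highest QDG mouse was at 0.94 FPKM. Its place among the lower genes is thus partly set by that rule.
Dusp3 (ENSMUSG00000003518, chromosome 11, 101971143 to 101987013, minus strand) had 16.5, 17.1, 14.6, 15.7 and 15.5 FPKM in Control. It had 21.4, 14.98, 19.5, 17.5 and 16.8 FPKM in Ang II and 10.9, 11.1, 11.1, 10.7 and 11.1 FPKM in QDG mice. The QDG mice were below every mouse of the other groups and lay close together, while Control and Ang II overlapped.
The log2 difference of Dusp3 in QDG vs. Ang II was −0.66 (SE 0.080, adjusted p = 0.00265). It passed in all 11 other settings (adjusted p = 0.00172 to 0.0235) and without each of the 15 mice in turn (adjusted p = 0.00233 to 0.0111). Against Control it was −0.49 (SE 0.080, adjusted p = 0.0281) for QDG mice and 0.17 (SE 0.080, unadjusted p = 0.0562, adjusted p = 0.236) for Ang II mice. The latter ran from 0.075 to 0.18 over the main fit and the 11 other settings. The call in QDG vs. Control was lost without Control mouse 1 (adjusted p = 0.110), Control mouse 4 (0.0777), or QDG mouse 1 (0.0735), 2 (0.0674), 3 (0.0821), 4 (0.0608) or 5 (0.0566), with log2 differences from −0.52 to −0.47 over the 15 fits. Between 2732 and 6274 implied reads per mouse lay behind the level of Dusp3.
Most of Dusp3 came from the coding transcript ENSMUST00000003612 (chromosome 11, 101971143 to 101984799), named after its values were seen. It had 14.6 ± 0.969, 15.1 ± 2.89 and 9.61 ± 0.466 FPKM in Control, Ang II and QDG mice (SD, n = 5 each). All QDG mice were below all others for this transcript too, and the log2 difference in QDG vs. Ang II was −0.59 (SE 0.11, unadjusted p = 0.000130, adjusted p = 0.0627 over all transcripts). The transcript ENSMUST00000143177 was at 0.934 ± 0.566, 2.04 ± 0.779 and 0.550 ± 0.564 FPKM (log2 difference −1.01, unadjusted p = 0.00490, adjusted p = 0.197, in QDG vs. Ang II).

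Dusp7 (ENSMUSG00000053716, chromosome 9, 106368632 to 106375724, plus strand) encodes MKP-X, which acts on ERK in the cytoplasm. Control mice had 6.15, 6.37, 5.98, 5.86 and 6.42 FPKM and Ang II mice 8.35, 7.49, 9.77, 8.43 and 6.82 FPKM. The QDG mice had 8.02, 7.93, 7.13, 8.06 and 7.52 FPKM. Both infused groups were above all Control mice and overlapped with each other.
For Dusp7 the log2 difference was 0.35 (SE 0.079, adjusted p = 0.0227) in Ang II vs. Control, −0.064 (95% interval −0.23 to 0.11, adjusted p = 0.750) in QDG vs. Ang II and 0.29 (SE 0.079, unadjusted p = 0.00287, adjusted p = 0.132) in QDG vs. Control. The first call was lost without Control mouse 1 (adjusted p = 0.0513) or Control mouse 3 (0.0552), with quantile normalization (0.0949), median scaling (0.102), a total without mitochondrial transcripts (0.0559) and a fit to the compared mice alone (0.0630).

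**Figure D3:**
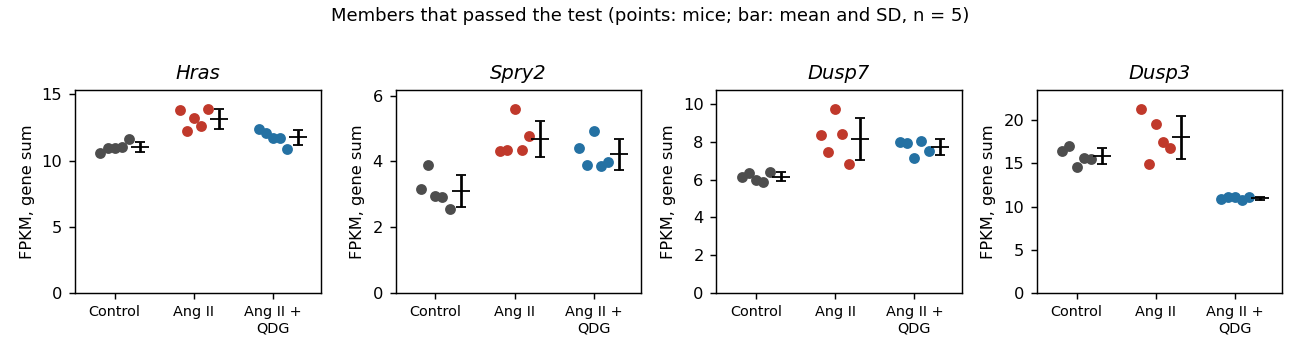
Level (FPKM, summed over transcripts, axis from 0) of Hras, Spry2, Dusp7 and Dusp3 in each mouse, by group, with the mean and SD (n = 5). Hras, Spry2 and Dusp7 are higher in all Ang II mice than in any Control mouse, and Dusp3 is at 10.7 to 11.1 FPKM in the QDG mice, under all other mice.

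The other phosphatase genes tested were not called. Dusp4 (MKP-2), a nuclear phosphatase that ERK signalling induces, had 5.71, 3.87, 6.52, 3.20 and 4.59 FPKM in Control and, in the Ang II mice, 3.92, 6.63, 7.17, 4.93 and 4.22 FPKM. QDG mice had 2.66, 2.94, 3.73, 2.81 and 3.20 FPKM. All QDG mice were below all Ang II mice, and they overlapped with Control. Dusp4 differed by −0.63 (SE 0.17, unadjusted p = 0.00297, adjusted p = 0.0813) in QDG vs. Ang II and by −0.48 (SE 0.17, unadjusted p = 0.0152, adjusted p = 0.229) in QDG vs. Control on the log2 scale.
Dusp5, an ERK phosphatase of the nucleus, had 0.969 ± 0.158, 1.07 ± 0.186 and 0.777 ± 0.146 FPKM in Control, Ang II and QDG mice (SD, n = 5 each), with a log2 difference of −0.22 (SE 0.094, unadjusted p = 0.0346, adjusted p = 0.256) in QDG vs. Ang II. It was −0.42 with a pseudocount of 0.1 and −0.46 with 0.01 (adjusted p = 0.290 and 0.299). Dusp6 (MKP-3), a cytoplasmic ERK phosphatase whose transcript is commonly read as a marker of ERK output, had 13.8 ± 2.14, 13.7 ± 2.65 and 14.4 ± 2.37 FPKM. Its log2 fold change was −0.017 (95% interval −0.33 to 0.29, adjusted p = 0.965) in Ang II vs. Control and 0.072 (95% interval −0.24 to 0.38, adjusted p = 0.856) in QDG vs. Ang II. Dusp16, which acts on JNK and p38, had 5.03 ± 0.840, 5.76 ± 1.73 and 4.88 ± 0.916 FPKM, with adjusted p-values of 0.672, 0.642 and 0.941 in Ang II vs. Control, QDG vs. Ang II and QDG vs. Control.
Dusp8, another JNK and p38 phosphatase, was left out by the minimum level. It had 0.370, 0.617, 0.441, 0.407 and 0.476 FPKM in Control and, in the Ang II mice, 1.124, 1.56, 1.14, 0.880 and 0.639 FPKM. QDG mice had 0.415, 0.722, 0.559, 0.496 and 0.728 FPKM. All Ang II mice were above all Control mice, and Ang II mouse 5 was within the range of the QDG mice. With no minimum level, Dusp8 differed by 0.49 (SE 0.11, adjusted p = 0.0253) in Ang II vs. Control and by −0.37 (SE 0.11, unadjusted p = 0.00445, adjusted p = 0.110) in QDG vs. Ang II.

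In Ang II vs. Control the groups did not overlap for 3 of the 42 genes, each higher, and these were the genes called. Over all genes tested the groups did not overlap for 6.49% (higher) and 1.42% (lower). In QDG vs. Ang II there were 4 such genes, Map3k5, Mapkapk2, Dusp3 and Dusp4, each lower with QDG, where the background was 3.44% lower and 1.56% higher. In QDG vs. Control there were 2, Dusp7 (higher) and Dusp3 (lower), against 2.78% and 0.857%.

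**Figure D4:**
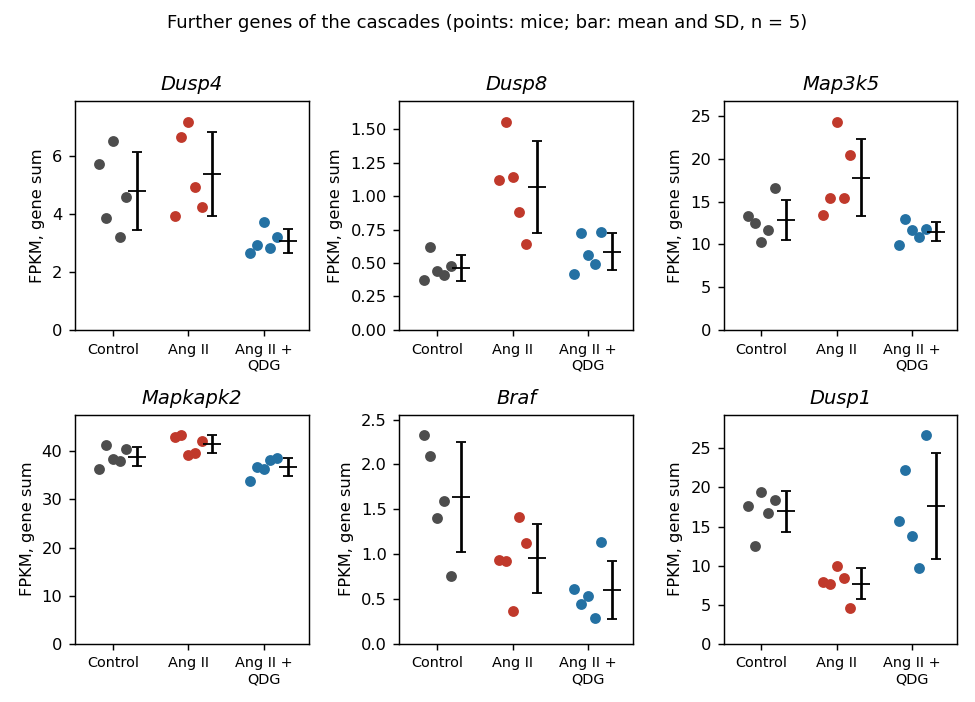
Level (FPKM, summed over transcripts, axis from 0) of Dusp4, Dusp8, Map3k5, Mapkapk2, Braf and Dusp1 in each mouse, by group, with the mean and SD (n = 5). Dusp4, Map3k5 and Mapkapk2 are lower in all QDG mice than in any Ang II mouse without passing the adjusted test, and Dusp1 is lower in all Ang II mice than in any Control mouse.

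The 70 transcripts of the listed genes that could be tested gave 0 calls at an adjusted p under 0.05 in each comparison by limma. Over the 28812 transcripts tested, 0.691% were called in Ang II vs. Control, 0.0972% in QDG vs. Ang II and 0.0243% in QDG vs. Control. At an unadjusted p under 0.05, 11 of the 70 were higher and 0 lower in Ang II vs. Control, against 12.2% and 3.73% of all transcripts. In QDG vs. Ang II 1 was higher and 10 were lower, against 4.4% and 6.9%, and in QDG vs. Control 4 were higher and 4 lower, against 7.06% and 2.95%.

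Several genes were made up of different transcripts in different mice of the same group, a pattern chosen after the values were seen. For Map2k2, the coding transcript ENSMUST00000105331 was at 49.0 to 62.6 FPKM in 7 mice and at 0.996 to 1.47 FPKM in the other 8. The 7 were Control mice 2, 3 and 4, Ang II mouse 5 and QDG mice 3, 4 and 5. ENSMUST00000048223, annotated for nonsense-mediated decay, was at 24.4 to 54.6 FPKM in the 8 mice and at 0 to 0.224 FPKM in the 7. The sum for Map2k2 had a CV of 13.4% over the 15 mice, against 106.5% and 102% for the transcripts.
The gene sums of Mapk3 and Map3k7 also varied less than their transcripts. The Mapk3 transcripts ENSMUST00000091328 and ENSMUST00000057669 ranged from 0.964 to 35.0 and from 4.82 to 42.6 FPKM, and the sum had a CV of 13.9%. For Map3k7, the gene of TAK1, ENSMUST00000080933 was listed at 0 in Control mice 4 and 5, Ang II mouse 1 and QDG mouse 1, where ENSMUST00000037607 was at 8.21 to 9.60 FPKM. Over the 15 mice, Pearson's r between the transcripts was −0.94 for Map2k2, −0.92 for Mapk3 and −0.89 for Map3k7, and Spearman's rho was −0.78, −0.72 and −0.63. These values describe transcripts of 1 gene in the same libraries, among which reads can be assigned in more than 1 way, and the part of that assignment was not tested. For Mapk14 the sum varied more than 1 of its transcripts, and had a CV of 36.9% against 49.7% for ENSMUST00000062694 and 19.0% for ENSMUST00000004990, with an r of −0.41 and a rho of −0.41 between them.

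**Figure D5:**
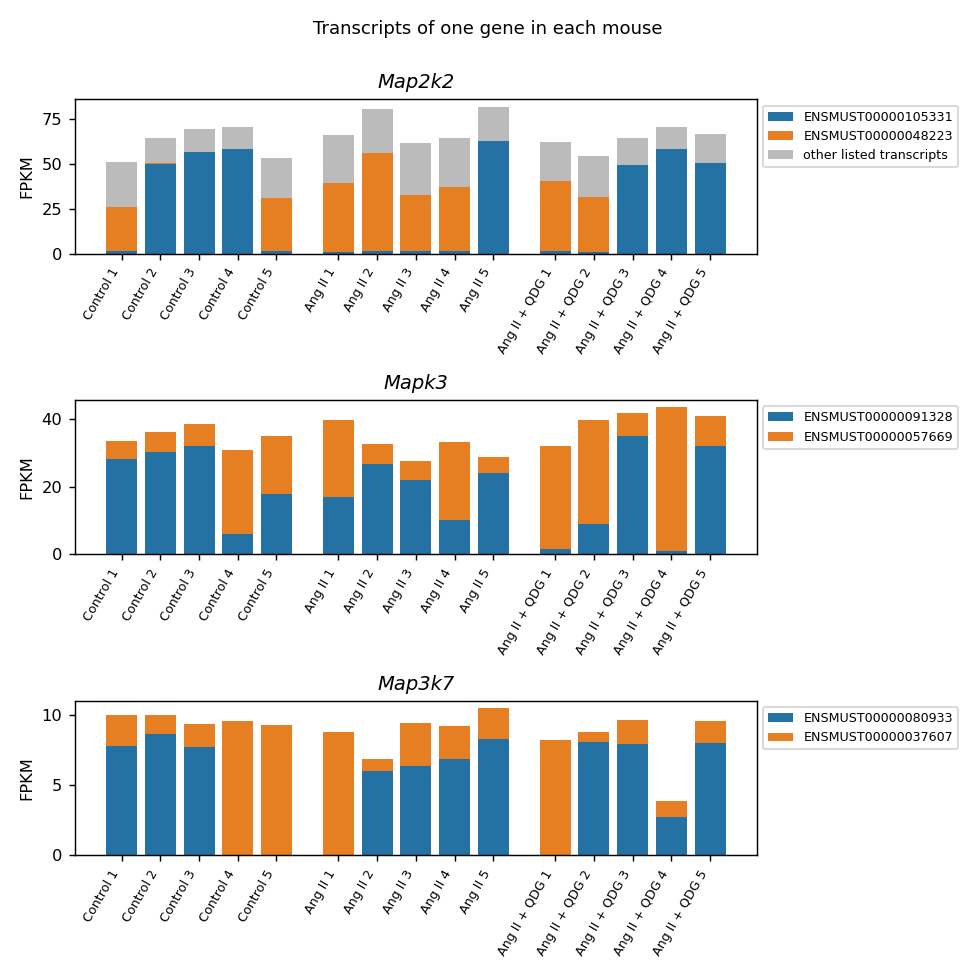
FPKM of the transcripts of Map2k2, Mapk3 and Map3k7 in each of the 15 mice as stacked bars, with the pair of most abundant transcripts in blue and orange and the other listed transcripts in grey. For Map2k2 the coding transcript is at 49.0 to 62.6 FPKM in 7 mice and at 0.996 to 1.47 FPKM in 8, with both states in every group, and the whole bars differ less.

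A list of 66 other MAPK pathway genes, of which 53 were tested, placed the cascade genes among their regulators. In Ang II vs. Control 6 rose and 1 fell, with a median log2 fold change of 0.12, where 4.95% of all genes rose and 0.994% fell. In QDG vs. Ang II 1 rose and 0 fell, beside 0.525% and 1.29% of all genes. In QDG vs. Control 0 were called by limma. At an unadjusted p under 0.05, 15 of the 53 were higher and 1 was lower, against 10.7% and 3.72% of all genes.
The gene that fell with Ang II was Dusp1 (MKP-1), an immediate-early phosphatase that acts mainly on JNK and p38. It had 17.6, 12.6, 19.4, 16.8 and 18.4 FPKM in Control and, in the Ang II mice, 7.87, 7.66, 9.96, 8.37 and 4.58 FPKM. QDG mice had 15.7, 22.2, 13.7, 9.72 and 26.7 FPKM. All Control and all QDG mice except QDG mouse 4, which was within the Ang II range, were above the Ang II mice.
Dusp1 differed by −1.07 (SE 0.24, adjusted p = 0.0215) in Ang II vs. Control, by 1.05 (SE 0.24, adjusted p = 0.0402) in QDG vs. Ang II and by −0.012 (adjusted p = 0.991) in QDG vs. Control on the log2 scale. The first call was lost without Control mouse 1 (adjusted p = 0.0507), Control mouse 3 (0.0528) or Ang II mouse 5 (0.0504). The second held in 4 of the 15 fits with a mouse left out, those without Control mouse 2, Control mouse 5, Ang II mouse 3 or QDG mouse 4, with adjusted p-values from 0.0349 to 0.101 over all 15. Summing only protein-coding transcripts ended both calls (adjusted p = 0.0692 and 0.195), and a fit to the compared mice alone ended the second (0.104).
The genes that rose with Ang II were the MAP3K genes Taok2 (log2 fold change 0.41, adjusted p = 0.00841) and Map3k6 (0.90, 0.0253), the MAP4K gene Map4k2 (0.50, 0.0313), the JNK scaffold gene Mapk8ip3 (0.71, 0.0286), the ERK and p38 effector kinase gene Mknk1 (0.45, 0.0299) and the phosphatase gene Dusp22 (0.38, 0.0383). Taok2 passed in 15 of 15 fits with a mouse left out. Map3k6 was lost without Control mouse 1 or 3 or Ang II mouse 5 (adjusted p = 0.0534 to 0.0631), Map4k2 without Control mouse 1, 3, 4 or 5 or Ang II mouse 1, 2 or 5 (adjusted p = 0.0580 to 0.0781), Mapk8ip3 without Control mouse 1 or Ang II mouse 2 or 5 (adjusted p = 0.0565 to 0.0693), Mknk1 without Control mouse 1, 4 or 5 or Ang II mouse 1, 2, 4 or 5 (adjusted p = 0.0531 to 0.0658) and Dusp22 without Control mouse 1, 2, 3, 4 or 5, Ang II mouse 1, 2, 3 or 5 or QDG mouse 5 (adjusted p = 0.0516 to 0.0860). The same 5 genes were lost under quantile normalization, with adjusted p-values of 0.0519, 0.0640, 0.0587, 0.0604 and 0.118 in that order, and under median scaling (0.0521, 0.0645, 0.0612, 0.0637 and 0.119). With a total without mitochondrial transcripts, Map4k2 (0.0551), Mapk8ip3 (0.0503), Mknk1 (0.0567) and Dusp22 (0.0838) were lost. Fitting the compared mice alone lost Map3k6 (0.0630) and Mapk8ip3 (0.0688). When only protein-coding transcripts were summed, Map4k2 was at 0.11 (adjusted p = 0.883), Mapk8ip3 at 0.65 (0.285) and Mknk1 at −0.40 (0.604). Map3k6 was at 1.54 with a pseudocount of 0.1 and at 1.67 with 0.01.

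Transcripts known to respond to MAPK signalling were described in the same way. Of 23 such genes 14 were tested, and 3 rose and 0 fell in Ang II vs. Control, beside 4.95% and 0.994% of all genes. Jun, the AP-1 subunit that JNK phosphorylates, had 7.19 ± 1.22, 11.3 ± 2.03 and 9.08 ± 0.908 FPKM in Control, Ang II and QDG mice (SD, n = 5 each), and differed by 0.59 (SE 0.12, adjusted p = 0.0165) on the log2 scale. Junb had 6.76 ± 0.616, 10.4 ± 0.804 and 7.28 ± 1.62 FPKM and differed by 0.56 (SE 0.11, adjusted p = 0.0144). Both were called without each of the 15 mice in turn. Ier2, an immediate-early gene, had 5.10 ± 0.683, 7.19 ± 0.987 and 5.99 ± 0.880 FPKM and differed by 0.42 (SE 0.11, adjusted p = 0.0398), a call that was lost without Control mouse 1, 3, 4 or 5, Ang II mouse 1, 2, 3 or 4 or QDG mouse 3 (adjusted p = 0.0501 to 0.0951). The Ier2 call was also lost under quantile normalization (adjusted p = 0.102), median scaling (0.101), a total without mitochondrial transcripts (0.0840), a fit to the compared mice (0.0629) and protein-coding transcripts only (0.0515).
In QDG vs. Ang II, Junb alone among the 14 passed, where 1.29% of all genes fell and 0.525% rose. It fell by 0.48 on the log2 scale (SE 0.11, adjusted p = 0.0439), and held in 2 of the 15 fits, those without Ang II mouse 3 or QDG mouse 4. This call was lost with a total without mitochondrial transcripts (adjusted p = 0.0793) and with the compared mice alone (0.104). Of 12 genes of the EGFR family and its ligands 9 were tested, and 0 were called in any comparison by limma. The receptor gene Erbb4, named after its values were seen, had an unadjusted p under 0.05 in QDG vs. Control, with a log2 difference of 0.90 (SE 0.36, unadjusted p = 0.0259, adjusted p = 0.281).
Of the angiotensin receptor genes (3) only Agtr1a, the type 1a receptor, was tested. It had 22.4, 21.1, 18.6, 6.81 and 5.48 FPKM in Control, 18.4 to 22.5 FPKM in Ang II and 16.0 to 20.5 FPKM in QDG mice. Control mice 4 and 5 were below all other mice. The log2 fold change was 0.62 (adjusted p = 0.258) in Ang II vs. Control, −0.15 (adjusted p = 0.856) in QDG vs. Ang II and 0.46 (adjusted p = 0.517) in QDG vs. Control. With a mouse left out, the values against Control ran from 0.34 to 0.81 and from 0.19 to 0.65.

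Marker sums of other cell types differed between the groups. The 4 podocyte markers listed (of 5) summed to 35.5 to 38.6 FPKM in Control, 48.8 to 67.5 FPKM in Ang II and 44.9 to 57.1 FPKM in QDG mice, so both infused groups were above Control, as for Dusp7. Marker by marker, the podocyte log2 fold changes in Ang II vs. Control had a median of 0.18, with 3 positive and 1 negative. The sum thus does not stand for each podocyte marker. The 6 smooth muscle and stroma markers summed to 40.3 to 57.5, 50.7 to 112 and 60.6 to 72.1 FPKM in Control, Ang II and QDG mice, and the QDG mice were above all Control mice. In Ang II vs. Control, where Hras, Spry2 and Dusp7 rose, 2 of these 6 markers rose (Tagln and Pdgfrb), with a median log2 fold change of 0.54 over the 6 and 4 higher at an unadjusted p under 0.05. Of all genes, 4.95% rose and 17.9% were higher at that unadjusted p. The collecting duct marker Slc26a4 (log2 fold change 0.49, adjusted p = 0.0312) rose too, and the other collecting duct markers tested were not called. The 5 endothelial markers (45.9 to 67.6, 47.3 to 67.3 and 48.8 to 69.9 FPKM), the 5 macrophage markers listed of 6 (22.1 to 37.1, 19.6 to 28.4 and 18.8 to 62.9 FPKM) and the 5 markers of thick ascending limb and distal tubule (1139 to 1483, 973 to 1408 and 1289 to 1646 FPKM) overlapped between groups. Of 6 lymphocyte markers 1 was listed, at 0.118 to 0.847, 0.0861 to 0.673 and 0.324 to 1.36 FPKM. No marker sum listed here separated the QDG mice from both other groups, as Dusp3 did. With a total without mitochondrial transcripts, the log2 fold change of Dusp3 in QDG vs. Ang II was −0.62, and it was still called. The part of cell composition in the differences of Hras, Spry2, Dusp7 and Dusp3 was not tested.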

How the data were processed

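Total RNA of each kidney was depleted of rRNA and sequenced from NEB Next Ultra libraries, per the labels. The authors deposited a file per mouse with a value for each annotated and assembled transcript. The unit is not named in the files and was taken as FPKM from the values, as deposited: scaled by transcript length, 98.5% to 98.7% of the values under 200 reads were whole multiples of 1 read (tolerance 0.05), which also gave the depth, 68924100 to 81319100 reads or fragments per mouse. The submitters' processing notes name limma and build mm10, and the aligner and counter are not given in the sources used here. All per-mouse columns were used (0 left out).

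FPKM was summed per gene over the 28871 annotated transcripts present in all 15 files (GENCODE mouse M21). Each Control file listed 41477 transcripts and each file of an infused mouse 42310. In all, 1423 transcripts were in Control files only and 2256 in the other files only. The set of listed transcripts thus differed between Control and infused mice, and transcripts of 1 side only were left out of the sums. Genes that reached 1 FPKM in 5 or more mice were tested with limma 3.58.1 in R 4.3.3 (package data.table, version 1.17.8) on log2(FPKM + 1), as 3 group means over all 15 mice with a variance trend and 12 residual degrees of freedom. This scale understates the changes of low genes. P-values were adjusted by Benjamini-Hochberg over all genes tested, and an adjusted p under 0.05 was a call. Transcripts, assembled ones included, were tested in the same way. Each library is 1 mouse, so p-values measure the spread between mice. The procedure was tested on simulated data. A marker gene is not reported here.

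The genes, the other lists (pathway genes, responsive transcripts, receptors and cell type markers) and the tests were chosen with earlier results of these data known. Genes named with full statistics were those called in any comparison, those with an unadjusted p under 0.05 and the MAP kinases. The alternatives were a pseudocount of 0.1 or 0.01, no minimum level or one of 5 FPKM, quantile normalization, median scaling, a total without mitochondrial transcripts, no variance trend, only the mice compared, only protein-coding transcripts, all listed transcripts with missing ones as 0, and each mouse left out. Promoter windows are from RefSeq (GRCm38.p6), read with Python 3.11.15.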

Additional observations from a re-analysis of the deposited data

Results flagged for a closer look

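Within groups of 5 mice, a single mouse was taken as far from the others where its gap to the nearest mouse exceeded Dixon's 95% limit. Over 44 genes and 3 groups, 19 of 132 groups (14.4%) had such a mouse, in 17 genes, where chance gives about 1 in 20 groups. Over the 12372 genes tested, the share was 8.80% of groups.
In the ERK arm and at its entry, the receptor gene Egfr was at 15.3 FPKM (9.45 to 10.6 in the others) in Control mouse 2. The exchange factor gene Sos1 was at 2.67 FPKM (4.91 to 5.25 in the others) in Control mouse 5 and at 5.73 FPKM (4.86 to 5.09 in the others) in Ang II mouse 2. QDG mouse 2 stood apart for Sos2 with 12.5 FPKM (7.75 to 8.73 in the others), for Nras with 3.23 FPKM (6.77 to 7.70 in the others), for Rps6ka2 with 1.115 FPKM (0.770 to 0.803 in the others) and for Rps6ka3 with 3.62 FPKM (7.92 to 9.15 in the others). Control mouse 2 had 9.52 FPKM (2.67 to 4.37 in the others) of Rps6ka3. Ang II mouse 3 was low for the RAF gene Araf, at 14.8 FPKM (22.1 to 23.7 in the others), and for the RSK gene Rps6ka1, at 3.89 FPKM (5.80 to 6.15 in the others).
In the other arms, the ERK5 kinase gene Map2k5 was at 5.04 FPKM (7.99 to 8.45 in the others) in Control mouse 1. Map3k1 was at 0.253 FPKM (4.51 to 5.72 in the others) in QDG mouse 1, Map3k7 at 3.87 FPKM (8.21 to 9.67 in the others) in QDG mouse 4 and Map3k11 at 6.78 FPKM (0 to 1.03 in the others) in Ang II mouse 2. Map2k4 was at 9.07 FPKM (13.4 to 14.7 in the others) in Control mouse 5. QDG mouse 5 had 6.28 FPKM (8.52 to 9.28 in the others) of Map2k7 and 24.0 FPKM (13.3 to 16.3 in the others) of Map2k3. Mapk14 was at 21.01 FPKM (39.6 to 43.2 in the others) in QDG mouse 1, and Mapkapk3 at 3.90 FPKM (0.397 to 0.871 in the others) in Ang II mouse 1.
None of the genes that passed the test, Hras, Spry2, Dusp7 and Dusp3, had such a mouse in any group. Such a mouse widens the spread that the test uses, so this is partly set by how the genes were chosen.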

How the results depend on the processing

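The count of listed genes called in Ang II vs. Control was 3 as reported, 1 with quantile normalization (Spry2), 0 with median scaling, 1 with a total without mitochondrial transcripts and 1 with only the mice compared. It was 4 with no minimum level, which adds Dusp8, 2 with a minimum of 5 FPKM, which leaves out Spry2, and 2 with protein-coding transcripts only. It was 1 to 4 with a mouse left out, and the low value came without Control mouse 1 or Control mouse 3. In QDG vs. Ang II the count was 1 in all 11 other settings and 1 to 2 with a mouse left out, and in QDG vs. Control it was 1 in all 11 and 0 to 1. With a minimum of 5 FPKM, 1 transcript was called in Ang II vs. Control and 1 in QDG vs. Ang II, against 0 as reported. Leaving out a mouse gave 0 to 1 transcripts in Ang II vs. Control and 0 in the others.
Some small values changed sign, none of them called apart from Mknk1, which went to −0.40 with protein-coding transcripts only. Mapk7 was at −0.21 (Ang II vs. Control) and −0.16 (QDG vs. Control) with all listed transcripts, and at −0.11 to 0.14 with a mouse left out in QDG vs. Ang II. In Ang II vs. Control, Mapk9 was at −0.077 with quantile normalization, −0.075 with median scaling, −0.041 without mitochondrial transcripts, −0.084 with all listed and −0.058 with protein-coding transcripts, and at −0.12 to 0.12 with a mouse left out. Mapk14 was at −0.088, −0.084, −0.057, −0.093 and −0.029 in the same settings and at −0.29 to 0.17 with a mouse left out. The cause was not tested.
No paired analysis was possible because the replicate numbers follow the order of the samples and the labels pair no mice. With 5 mice a group, genes with a wide spread such as Map3k11 and Mapk14 had wide intervals, and the values report RNA, not kinase activity. Over all genes, the median log2 fold change in Ang II vs. Control was 0.083 as deposited, −0.0064 with quantile normalization and −0.0079 with median scaling.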

Other observations

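Genes of the cascades given above only by counts had these levels. The p38 effector kinase gene Mapkapk3 was at 1.52, 4.17, 4.62, 0.594 and 2.25 FPKM in the Control mice, 3.90, 0.672, 0.871, 0.447 and 0.397 FPKM in the Ang II mice and 0.591, 4.82, 5.86, 2.25 and 1.60 FPKM in QDG mice, with a wide spread in every group and a log2 difference of −0.72 (adjusted p = 0.390) in Ang II vs. Control and 0.82 (adjusted p = 0.407) in QDG vs. Ang II. The p38 kinase gene Map2k6 (MKK6) had 1.18 ± 0.646, 1.92 ± 1.11 and 1.62 ± 0.619 FPKM in Control, Ang II and QDG mice (SD, n = 5 each). Rps6ka1 (RSK1) had 5.02 ± 0.539, 5.55 ± 0.944 and 5.86 ± 0.637 FPKM and Rps6ka2 (RSK3) had 0.716 ± 0.218, 0.795 ± 0.230 and 0.854 ± 0.147 FPKM. The MAP3K gene Map3k2 had 6.45 ± 0.520, 6.75 ± 0.419 and 6.70 ± 0.524 FPKM and Map2k5 had 7.58 ± 1.44, 7.54 ± 0.916 and 7.43 ± 1.44 FPKM, with the groups overlapping for each of these genes.
The marker sums not given above overlapped between the groups. They were 3116 to 3301, 3217 to 4350 and 3185 to 3877 FPKM for the proximal tubule, 175 to 347, 171 to 369 and 244 to 425 FPKM for the collecting duct, 71.1 to 335, 61.7 to 139.8 and 93.8 to 143 FPKM for tubular injury and 0.726 to 6.79, 0.867 to 12.5 and 1.48 to 5.79 FPKM for adipose tissue and adrenal gland.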
